A study of Mus musculus with 5 samples.

Results

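The transcription factors that set up and maintain the macrophage lineage were followed in mouse macrophages grown from bone marrow, a culture in which the growth factor M-CSF turns marrow progenitors into adherent phagocytes. The set was defined by symbol and not by a measured level, as PU.1 (written Sfpi1 or Spi1), C/EBP alpha, beta and delta (Cebpa, Cebpb, Cebpd), RUNX1 and RUNX3 (Runx1, Runx3), c-MAF (Maf) and Bhlhe40. The table held 8 of these genes among 20583 gene symbols, with PU.1 under its older symbol Sfpi1, and all 8 passed the filter on low counts. The NICcA group (n = 2 libraries, numbered 2 and 3) and the wild type group (n = 3 libraries) came from C57BL/6 background mice aged 7 to 8 weeks. Marrow cells of both genotypes had been kept in 25 ng/ml M-CSF for 7 days. The labels do not spell NICcA out or name the promoter that drives it. Elsewhere the name has been used for conditional expression of the Notch intracellular domain, which moves to the nucleus and works there with the DNA-binding protein RBPJ. The question is whether these factors differ between NICcA and wild type macrophages.

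PU.1 is an ETS-family protein that opens the regulatory regions of myeloid genes, among them the M-CSF receptor gene Csf1r, and its dose in a progenitor helps decide between macrophage and other fates. The C/EBP proteins are leucine zipper factors that bind DNA as dimers and act beside PU.1: C/EBP alpha is needed to form granulocyte and monocyte progenitors, while C/EBP beta and C/EBP delta are tied to inflammatory transcription. RUNX1 founds the blood stem cell lineage and RUNX3 is best known from T cells, natural killer cells and some tissue macrophages, both with the partner CBF beta. c-MAF drives interleukin-10 and the genes of resident macrophages, and it restrains self-renewal. BHLHE40 is a repressor that binds E-boxes and supports macrophage proliferation.

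Total counts over all transcript rows were between 64870248 and 68110891 in the NICcA libraries and between 57442309 and 76562905 in the wild type libraries. Hes1, a gene switched on directly by Notch signalling, had counts above those of wild type in both NICcA libraries, at 2.77 and 1.73 CPM (counts per 1000000, with the library size scaled by TMM), against 0.0174, 0.0682 and 0.0911 CPM in wild type. Csf1r was at 861 and 855.5 CPM in NICcA and at 842.5, 883 and 1146 CPM in wild type, and the macrophage lysozyme gene Lyz2 was at 9302 and 10410 CPM in NICcA and at 11520, 14310 and 17520 CPM in wild type. Whether replicates are different mice or dishes is not stated, so a p-value here speaks of the spread between libraries, which may be technical.

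Of the 8 factors, 0 passed edgeR's quasi-likelihood test at a Benjamini-Hochberg adjusted p below 0.05 over all rows, where 0.03% of the 13341 genes tested passed. An unadjusted edgeR p below 0.05 was reached by 1 factor, Runx3, where 14.5% of all genes reached it, and 0 factors passed with DESeq2 (3.95% of all genes) or limma-voom (0.015% of all genes). Hes1, at a log2 fold change of 5.18 (SE 0.54), also did not pass with edgeR (adjusted p = 0.13). It passed with DESeq2 (adjusted p = 1.1e-11). The median log2 fold change of the 8 factors, NICcA over wild type, was 0.03, beside 0.00 over all genes tested. The estimate lay within a 2-fold change in either direction for 7 factors, and the 95% interval (unadjusted, from the edgeR fit) lay within it for 6. The exceptions were Runx3, whose estimate was above 2-fold, and Cebpa, whose interval reached below a log2 fold change of -1. In RNA from whole cultures, fewer cells that express a gene and less RNA of it per cell cannot be told apart.

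**Figure D1:**
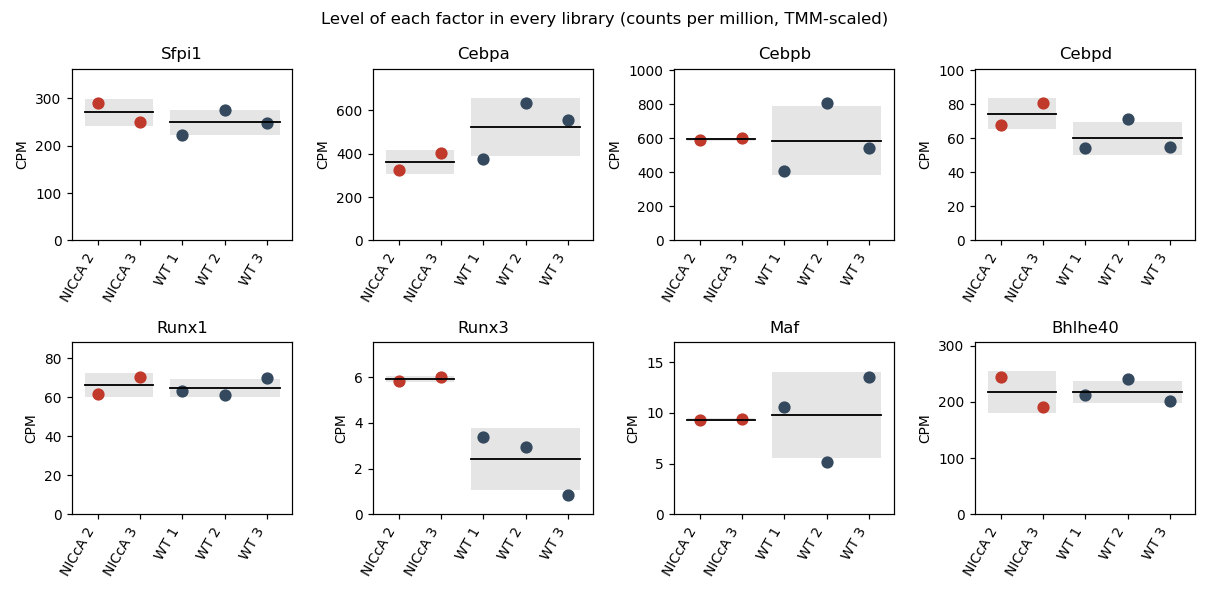
Level of the 8 factors in each library, in CPM (y axis, starting at 0). Red points are NICcA libraries and dark points wild type libraries; lines are group means and grey bands 1 SD. The NICcA points stand above all wild type points for Runx3, at 5.83 and 6.02 against at most 3.40 CPM, and overlap with wild type for the other 7 factors.

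Runx3 was the factor with the largest difference. It had 390 and 434 counts in NICcA replicates 2 and 3, against 196, 216 and 57 counts in wild type replicates 1, 2 and 3. Scaled to library size this was 5.83 and 6.02 CPM in NICcA and 3.40, 2.95 and 0.865 CPM in wild type. Runx3 was the 1 factor of 8 whose groups did not overlap in CPM, where 36.8% of all genes did not. Both NICcA libraries lay above every wild type library, as they did for 18.3% of all genes tested, and wild type replicate 3 lay far below the other 2. The mean was 5.93 ± 0.129 CPM in NICcA (SD, n = 2) and 2.41 ± 1.35 CPM in wild type (SD, n = 3), a log2 fold change of 1.30 (SE 0.52, 95% interval 0.03 to 2.58). The difference did not pass edgeR's adjustment (adjusted p = 0.34), and over the alternatives its adjusted p was between 0.14 and 0.90. Without wild type replicate 3 the log2 fold change was 0.90 (SE 0.19, edgeR adjusted p = 0.29), with the NICcA libraries still above both remaining wild type libraries.

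Runx3 and Runx1 each have a distal and a proximal start, and the row counted for Runx3 is the transcript of the distal one. The 250 bases before each start are shown because they are where the factors of this set and RBPJ could bind; they are RefSeq sequences on GRCm38.p6, 5′ to 3′ on the gene's strand, with motif matches in capitals. The motifs searched on both strands were GAGGAA for PU.1, TTGCNNAA for C/EBP, TGCTGA for MAF, TGTGGT for RUNX, CACGTG for BHLHE40 and TGGGAA for RBPJ, and no matches overlapped.
Runx3 distal start, chr4:135120395-135120644, plus strand: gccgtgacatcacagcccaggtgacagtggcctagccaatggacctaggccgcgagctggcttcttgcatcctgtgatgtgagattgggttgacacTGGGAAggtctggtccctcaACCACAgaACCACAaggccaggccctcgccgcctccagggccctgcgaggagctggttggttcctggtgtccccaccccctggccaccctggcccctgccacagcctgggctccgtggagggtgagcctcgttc
Runx3 proximal start, chr4:135152295-135152544, plus strand: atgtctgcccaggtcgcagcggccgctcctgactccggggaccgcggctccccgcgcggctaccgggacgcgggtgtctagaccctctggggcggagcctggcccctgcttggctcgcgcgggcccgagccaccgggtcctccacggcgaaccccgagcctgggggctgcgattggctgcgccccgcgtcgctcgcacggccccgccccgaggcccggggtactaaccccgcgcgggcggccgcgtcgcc
Runx1 distal start, chr16:92826075-92826324, minus strand: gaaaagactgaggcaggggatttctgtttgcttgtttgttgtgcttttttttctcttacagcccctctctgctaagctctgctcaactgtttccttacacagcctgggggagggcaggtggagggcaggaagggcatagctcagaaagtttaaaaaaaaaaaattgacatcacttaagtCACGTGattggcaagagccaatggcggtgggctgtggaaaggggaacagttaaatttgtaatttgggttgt
Runx1 proximal start, chr16:92697330-92697579, minus strand: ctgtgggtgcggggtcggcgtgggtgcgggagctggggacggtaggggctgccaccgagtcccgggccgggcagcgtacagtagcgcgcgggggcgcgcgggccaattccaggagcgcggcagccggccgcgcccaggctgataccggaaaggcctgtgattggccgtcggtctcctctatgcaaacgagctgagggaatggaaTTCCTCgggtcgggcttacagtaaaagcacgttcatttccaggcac
The window of the distal Runx3 start held TGGGAA, a form of the RBPJ motif that 21.6% of 32851 promoter windows of this length also held, with its first base 154 bases before the start. It also held ACCACA, the RUNX motif read on the other strand, beginning 134 and again 126 bases before the start, and 14.0% of all windows held a RUNX match. The proximal Runx3 window held no match. The distal Runx1 window held CACGTG, beginning 71 bases before the start (6.02% of all windows), and the proximal one held TTCCTC, the PU.1 motif read on the other strand, 46 bases before the start (23.3% of all windows). The windows of Cebpa and Cebpb held no match, and with Runx1 and Runx3 these are the 4 factors matched in the RefSeq promoter table. A match describes these letters and not binding.

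Genes whose levels across the 5 libraries were most like those of Runx3 were sought among 9395 genes with a mean of at least 5 CPM, by the root mean square difference of log2 CPM centred on each gene's mean. H2afx, the histone variant H2AX, was nearest with a difference of 0.06, at 160 and 185 CPM in NICcA and 96.4, 86.9 and 27.2 CPM in wild type. The next were the histone H4 genes Hist1h4j (0.12) and Hist1h4f (0.12), near-identical copies whose reads may be shared. All 3 were lowest in wild type replicate 3, as Runx3 was, which follows from the search for likeness. None passed edgeR's adjustment (adjusted p = 0.33 for H2afx, 0.34 for Hist1h4j and 0.37 for Hist1h4f).

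The summed level of 14 cell cycle genes, a list chosen after the values were seen and not tested, was 1120 and 1020 CPM in NICcA and 953, 613 and 413 CPM in wild type, with 13 of the 14 lowest in wild type replicate 3. The summed level of the 4 progenitor markers Kit, Cd34, Gata2 and Hlf was 39.5 and 35.4 CPM in NICcA and 26.6, 17.7 and 8.1 CPM in wild type, again without overlap and lowest in wild type replicate 3. By gene, Cd34 and Gata2 lay above all wild type libraries in NICcA, where 18.3% of all genes did. Kit overlapped, at 9.69 and 11.9 CPM in NICcA and 9.80, 11.4 and 5.42 CPM in wild type. Hlf had 2 counts in each NICcA library and 2, 0 and 11 counts in wild type. The 8 markers of T and NK cells, which also use Runx3, summed to 3.41 and 4.26 CPM in NICcA and 4.36, 3.63 and 2.35 CPM in wild type. The sums overlapped, with Cd2 as the largest part in wild type replicates 1 and 2. Of the 5 tested markers, 3 (Klrb1c, Cd3g and Lck) lay above all wild type libraries in NICcA, where 18.3% of all genes did. In NICcA, Cd3g had 19 and 26 counts and Lck 48 and 36. A positive log2 fold change stood in 4 of the 5 (median of the 5, 0.63), where 50.5% of all genes had one. The other, Cd2, had a log2 fold change of -0.83 (SE 0.67). The NK receptor gene Klrb1c was at 1.41 and 1.96 CPM in NICcA and at 1.08, 1.13 and 1.05 CPM in wild type (log2 fold change 0.63, SE 0.26, edgeR adjusted p = 0.34). The T cell receptor component Cd3g was at 0.284 and 0.360 CPM in NICcA and at 0.260, 0.0955 and 0.0455 CPM in wild type (log2 fold change 1.29, SE 0.72, edgeR adjusted p = 0.43). Of the 3 markers below the count filter, Cd3e had a count of 0 in wild type replicates 2 and 3, Ncr1 in NICcA replicate 2 and wild type replicate 2, and Gzmb in wild type replicates 1 and 2. The part of cell division, of progenitors or of T and NK cells in the Runx3 difference was not tested.

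**Figure D2:**
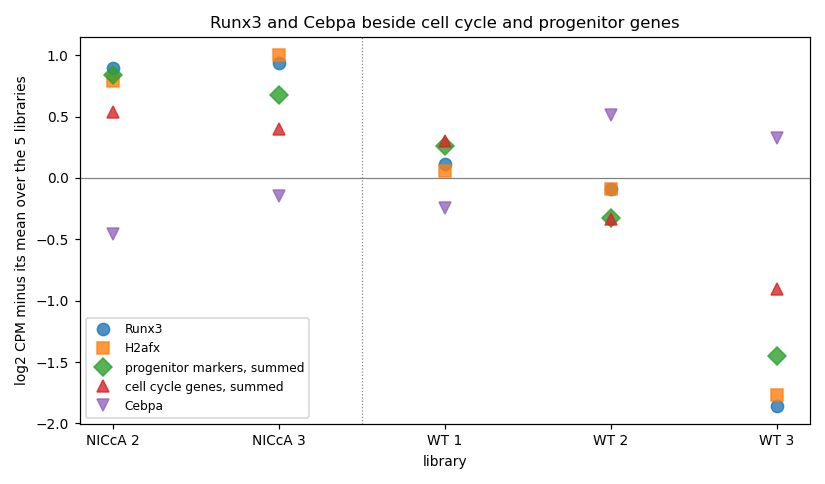
Difference of log2 CPM from its mean over the 5 libraries (y axis) by library (x axis, NICcA left of the dotted line) for Runx3, H2afx, the summed progenitor markers, the summed cell cycle genes and Cebpa. All but Cebpa are highest in the NICcA libraries and lowest in wild type replicate 3, where Runx3 is at 0.865 CPM and the cell cycle sum at 413 CPM. H2afx was chosen for its likeness to Runx3, and the cell cycle list after the values were seen. The likeness of these patterns was not tested.

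Runx1 was even across libraries. It was at 62.0 and 70.5 CPM in NICcA and at 63.2, 61.1 and 69.9 CPM in wild type, so the groups overlapped throughout. Its log2 fold change was 0.03 (SE 0.11, 95% interval -0.24 to 0.31, edgeR adjusted p = 0.90), which leaves a change between 0.845-fold and 1.24-fold in that interval. The ratio of Runx3 to Runx1 per transcript length was 0.172 and 0.156 in NICcA and 0.0985, 0.0883 and 0.0226 in wild type, so Runx1 was the more abundant paralog in every library. The mean log2 ratio was -2.61 ± 0.10 in NICcA (SD, n = 2) and -4.10 ± 1.18 in wild type (SD, n = 3), a difference of 1.50 (two-sided exact permutation p = 0.2, the smallest that 2 against 3 libraries can give). Without wild type replicate 3 the difference was 0.82, so that library carries much of its size.

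The 4 Runx1 rows share most of their reads, but their differences isolate stretches of the transcript. NM_001111023 and NM_009821 differed by 105 and 111 counts in NICcA and by 85, 95 and 97 counts in wild type, and NM_001111021 and NM_001111022 differed by exactly the same counts in each library. The RPKM values imply a stretch of 192 bases, the length of the exon that GENCODE M21 gives to NM_001111023 and not to NM_009821 (chr16:92644154-92644345 on GRCm38, minus strand). Its read density was 6.96 and 6.85 RPKM in NICcA and 6.23, 5.24 and 5.96 RPKM in wild type. That was 93.8% and 80.5% of the density of the row without it in NICcA, against 86.2%, 78.2% and 77.6% in wild type, with overlap between the groups. Against NM_001111022, the distal-start row without the exon, the same density was 109.0% and 92.1% in NICcA and 94.2%, 89.0% and 81.4% in wild type, again with overlap.

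NM_001111023, a transcript of the proximal start, exceeded NM_001111021, one of the distal start, by 18.6 and 20.4 CPM in NICcA and by 16.2, 17.4 and 15.8 CPM in wild type. The rows of the distal start had log2 fold changes of the other sign, -0.04 (SE 0.13) for NM_001111021 and -0.05 (SE 0.14) for NM_001111022, with edgeR adjusted p-values of 0.88 and 0.87. The excess is the reads on the proximal first exon less those on the distal ones. Both NICcA libraries lay above every wild type library in this excess, a pattern picked after the values were seen and not tested.

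PU.1 (Sfpi1) was high in all libraries, at 290.2 and 250.5 CPM in NICcA and at 224, 276 and 249 CPM in wild type. The groups overlapped, with NICcA replicate 2 highest and wild type replicate 1 lowest. The mean was 270.4 ± 28.1 CPM in NICcA (SD, n = 2) and 249.5 ± 26.4 CPM in wild type (SD, n = 3), with a log2 fold change of 0.12 (SE 0.14, 95% interval -0.22 to 0.45, edgeR adjusted p = 0.70). The interval holds changes from 0.859-fold to 1.37-fold and no larger ones.

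Cebpa had the largest difference in the other direction. It was at 323.5 and 401 CPM in NICcA and at 375, 633 and 557 CPM in wild type. NICcA replicate 3 lay above wild type replicate 1, so the groups overlapped, and wild type replicate 1 stood well below the other 2 wild type libraries. The mean was 362 ± 54.9 CPM in NICcA (SD, n = 2) and 522 ± 133 CPM in wild type (SD, n = 3), a log2 fold change of -0.53 (SE 0.24, 95% interval -1.12 to 0.07). This did not pass (edgeR adjusted p = 0.37, between 0.13 and 0.90 over the alternatives). Leaving out each library in turn gave log2 fold changes between -0.71, without wild type replicate 1, and -0.36, without wild type replicate 2.

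The genes nearest to Cebpa by the same measure of likeness were Psen2, Abhd12 and Syngr1, with root mean square differences of 0.07, 0.08 and 0.09 on the log2 scale. Psen2, the presenilin 2 subunit of gamma-secretase, which cleaves Notch receptors, was at 46.5 and 54.2 CPM in NICcA and 57.3, 83.7 and 80.1 CPM in wild type (log2 fold change -0.55, SE 0.19, edgeR adjusted p = 0.32). For Abhd12, a lysophospholipase, the log2 fold change was -0.45 (SE 0.19, edgeR adjusted p = 0.35), and for Syngr1, a synaptic vesicle protein, -0.49 (SE 0.18, edgeR adjusted p = 0.33). Like Cebpa, each was lower in wild type replicate 1 than in the other wild type libraries, which follows from the same search.

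Per transcript length, the ratio of PU.1 to Cebpa was 1.78 and 1.24 in NICcA and 1.18, 0.864 and 0.883 in wild type. Both NICcA ratios lay above all wild type ratios, with NICcA replicate 3 close to wild type replicate 1. The mean log2 ratio was 0.57 ± 0.37 in NICcA (SD, n = 2) and -0.05 ± 0.25 in wild type (SD, n = 3), a difference of 0.62 (two-sided exact permutation p = 0.2, the smallest possible here). PU.1 RNA exceeded Cebpa RNA in 2 of 2 NICcA libraries and in 1 of 3 wild type libraries. Of the 2 ratios tested here, neither can reach 0.05 in this design.

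Cebpb was the most abundant of the set per transcript length in every library. It was at 590 and 601 CPM in NICcA and at 410, 808 and 544 CPM in wild type. The wild type libraries spread on both sides of the NICcA pair, with a highest value 1.97 times the lowest. The log2 fold change was 0.02 (SE 0.28, 95% interval -0.66 to 0.70, edgeR adjusted p = 0.98). Its sign depended on single libraries, at -0.18 without wild type replicate 1 and 0.32 without wild type replicate 2.

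Cebpd, induced by inflammatory signals, was at 68.0 and 80.7 CPM in NICcA and at 54.0, 71.2 and 54.7 CPM in wild type. On this scale NICcA replicate 2 lay below wild type replicate 2. In the authors' RPKM, which carry no TMM factor, Cebpd was at 25.6 and 30.5 RPKM in NICcA and at 19.4, 24.5 and 18.8 RPKM in wild type, without overlap, as were 39.1% of all genes on that scale. Cebpd had a log2 fold change of 0.31 (SE 0.16, 95% interval -0.08 to 0.70, edgeR adjusted p = 0.40).

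**Figure D3:**
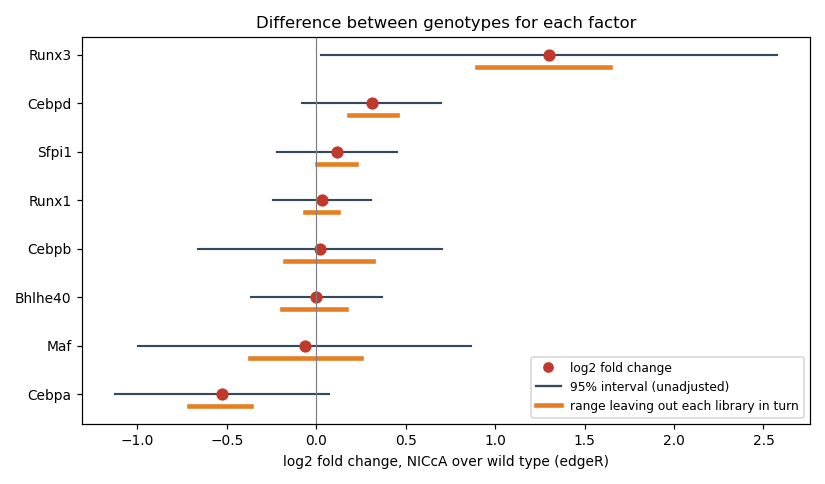
Log2 fold change of each factor, NICcA over wild type, from edgeR (x axis, red points), with its unadjusted 95% interval (dark line) and the range on leaving out each library in turn (orange). Runx3 is at 1.30 and Cebpa at -0.53; the interval of every other factor includes 0, as that of Cebpa does, and 0 of 8 passed the adjusted test.

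Maf was low in both groups, at 9.26 and 9.41 CPM in NICcA and at 10.6, 5.16 and 13.5 CPM in wild type. Both NICcA libraries fell inside the wild type range, which spanned 2.62-fold. The log2 fold change of -0.06 (SE 0.38, 95% interval -0.99 to 0.87, edgeR adjusted p = 0.95) leaves room for changes of up to nearly 2-fold either way. Without wild type replicate 3 it turned to 0.25, and it was also positive under 7 other alternatives.

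Bhlhe40 was at 245 and 191.5 CPM in NICcA and at 213, 240.0 and 201 CPM in wild type. NICcA replicate 2 was the highest library and NICcA replicate 3 the lowest, and the group means were both 218 CPM. The log2 fold change was 0.00 (SE 0.15, 95% interval -0.37 to 0.37, edgeR adjusted p = 1.0), so changes above 1.29-fold lay outside the interval.

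Within wild type, the highest library exceeded the lowest by 3.93-fold for Runx3, 2.62-fold for Maf, 1.97-fold for Cebpb and 1.69-fold for Cebpa. The same ratio was 1.32 for Cebpd, 1.24 for Sfpi1, 1.19 for Bhlhe40 and 1.14 for Runx1, where the median of all genes was 1.27. The factors with the widest spread between wild type libraries also had the widest intervals for the genotype difference. The intervals are computed from the spread within groups, so this follows from the method.

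Levels can be ordered between genes in RPKM, which divides by transcript length. In NICcA the order of the means was Cebpb (338 RPKM), Sfpi1 (173 RPKM), Cebpa (117 RPKM), Bhlhe40 (59.7 RPKM), Cebpd (28.1 RPKM), Runx1 (7.94 RPKM), Maf (2.19 RPKM) and Runx3 (1.30 RPKM). In wild type it was Cebpb (306 RPKM), Cebpa (155 RPKM), Sfpi1 (147 RPKM), Bhlhe40 (55.2 RPKM), Cebpd (20.9 RPKM), Runx1 (7.17 RPKM), Maf (2.11 RPKM) and Runx3 (0.490 RPKM). Neighbours in these orders did not overlap in their libraries, except Cebpa and Sfpi1 in wild type, at 115, 186 and 164 RPKM for Cebpa and 136, 161 and 145 RPKM for Sfpi1. Cebpb RNA stood above at least 99.1% of all 20583 gene symbols in every library, and Runx3 RNA above 43.6% to 52.8%. The factors thus lie from the middle of all symbols to the top. Between 2364 and 5254 of these symbols had a count of 0 in a library, so Runx3 stood lower among expressed genes.

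**Figure D4:**
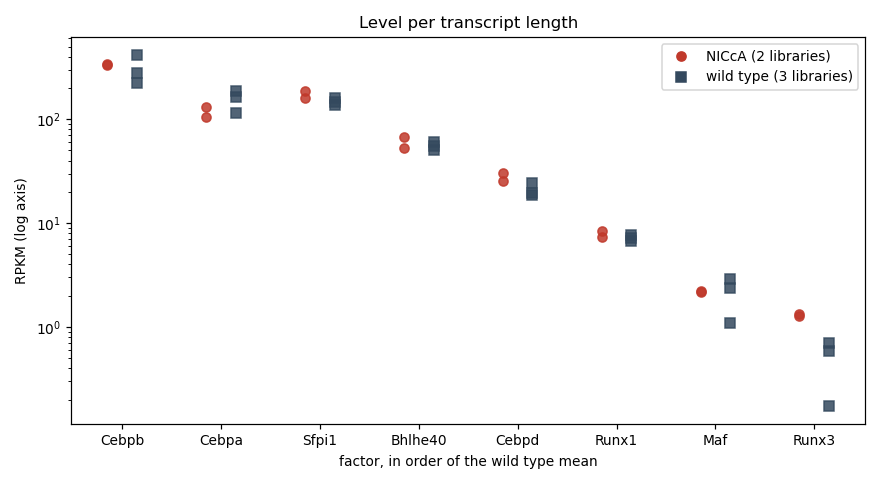
Level of the 8 factors in RPKM (log axis) in each library, ordered by the wild type mean; red circles are the 2 NICcA and dark squares the 3 wild type libraries. Cebpb is highest, at a mean of 338 RPKM in NICcA and 306 RPKM in wild type, and Runx3 lowest, at 1.30 RPKM in NICcA and 0.490 RPKM in wild type.

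Relatives and partners of the factors, taken by family and known partnership, gave 0 calls with edgeR and 0 with DESeq2. Of 14 ETS relatives of PU.1, 1 had an unadjusted edgeR p below 0.05 (14.5% of all genes) and the median log2 fold change was 0.05. Etv6, an ETS repressor needed in marrow stem cells, was at 39.6 and 30.6 CPM in NICcA and at 28.4, 25.6 and 24.3 CPM in wild type, without overlap (log2 fold change 0.43, SE 0.15, edgeR adjusted p = 0.32), with a log2 fold change of 0.23 without NICcA replicate 2. Elf2 was at 49.9 and 51.6 CPM in NICcA and at 56.3, 58.5 and 62.0 CPM in wild type (log2 fold change -0.21, SE 0.10, edgeR adjusted p = 0.36). Spib, the closest relative of PU.1 in lymphoid and plasmacytoid cells, stayed at or below 0.912 CPM in all libraries and was picked after its values were seen.

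Among 6 C/EBP relatives and partners, 2 had an unadjusted edgeR p below 0.05 (14.5% of all genes), and they lay on opposite sides. Cebpe, the factor of late granulocyte maturation, was at 7.11 and 9.27 CPM in NICcA and at 5.61, 2.23 and 1.88 CPM in wild type (log2 fold change 1.34, SE 0.48, edgeR adjusted p = 0.33). Cebpg, a C/EBP without an activation domain that pairs with the others, was at 60.5 and 87.0 CPM in NICcA and at 92.5, 97.9 and 111 CPM in wild type (log2 fold change -0.45, SE 0.18, edgeR adjusted p = 0.34); the log2 fold change was -0.21 without NICcA replicate 2 and -0.73 without NICcA replicate 3. Trib1, which targets C/EBP alpha protein for degradation, was at 24.6 and 19.4 CPM in NICcA and at 16.1, 18.5 and 17.1 CPM in wild type (log2 fold change 0.35, SE 0.14, edgeR adjusted p = 0.34); it was picked after its values were seen. Markers of neutrophils, in whose precursors Cebpe acts, summed over 9 genes to 110 and 127 CPM in NICcA and 78.9, 54.8 and 104 CPM in wild type, with NICcA replicate 2 close above wild type replicate 3. A positive log2 fold change stood in 9 of the 9, where 50.5% of all genes had one. In 4 of the 9, Prtn3, Ctsg, Ltf and Ngp, the groups did not overlap in CPM, where 36.8% of all genes did not. Counts were low for Mpo (0 to 12 a library), Elane (11 to 39), Prtn3 (11 to 45) and Ctsg (4 to 21). The part of neutrophil precursors in the Cebpe values was not tested.

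In the MAF family, 0 of 6 genes had an unadjusted edgeR p below 0.05 (14.5% of all genes), and the median log2 fold change was -0.16. Bach1, a haem-sensing repressor that pairs with small MAF proteins, was at 151 and 166 CPM in NICcA and at 182, 183 and 197 CPM in wild type (log2 fold change -0.24, SE 0.11, edgeR adjusted p = 0.36). The small MAF gene Maff was at 17.3 and 8.83 CPM in NICcA and at 6.11, 11.8 and 5.01 CPM in wild type, with overlap (log2 fold change 0.77, SE 0.44, edgeR adjusted p = 0.44). Single libraries moved it, to 0.20 without NICcA replicate 2 and 1.23 without wild type replicate 2.

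Of 7 tested RUNX relatives and partners, 2 had an unadjusted edgeR p below 0.05 (14.5% of all genes), at a list median of 0.03. The third RUNX gene, Runx2, known from bone, was at 10.9 and 11.2 CPM in NICcA and at 8.00, 8.93 and 7.28 CPM in wild type, without overlap (log2 fold change 0.45, SE 0.14, edgeR adjusted p = 0.31). Cbfa2t3, a corepressor of stem and progenitor cells, was at 10.2 and 11.2 CPM in NICcA and at 7.34, 8.11 and 4.89 CPM in wild type (log2 fold change 0.66, SE 0.23, edgeR adjusted p = 0.33). Cbfb, the common partner of all RUNX proteins, overlapped between groups, at 88.0 and 103 CPM in NICcA and 99.6, 83.8 and 97.0 CPM in wild type, and was picked after its values were seen.

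For the 12 relatives and clock partners of BHLHE40, 3 had an unadjusted edgeR p below 0.05 (14.5% of all genes), all lower in NICcA, and the list median was -0.09. The largest difference of the list ran the other way: Id1, an inhibitor of helix-loop-helix factors, was at 11.5 and 10.6 CPM in NICcA and at 4.58, 5.27 and 0.774 CPM in wild type, without overlap (log2 fold change 1.64, SE 0.68, edgeR adjusted p = 0.35; picked after its values were seen). Its paralog Bhlhe41 was at 92.1 and 87.0 CPM in NICcA and at 99.1, 175 and 143 CPM in wild type (log2 fold change -0.63, SE 0.24, edgeR adjusted p = 0.33; picked after its values were seen). Nr1d2, a clock repressor, was at 18.8 and 28.1 CPM in NICcA and at 31.9, 33.1 and 46.2 CPM in wild type (log2 fold change -0.66, SE 0.24, edgeR adjusted p = 0.33). Clock itself was at 46.7 and 55.9 CPM in NICcA and at 64.7, 60.5 and 72.9 CPM in wild type (log2 fold change -0.36, SE 0.13, edgeR adjusted p = 0.33). In CPM, Bhlhe41, Nr1d2 and Clock did not overlap between groups, where 36.8% of all genes did not, while Bhlhe40 did. On the RPKM scale Clock overlapped, at 5.31 and 6.38 RPKM in NICcA and 7.01, 6.29 and 7.58 RPKM in wild type. Without NICcA replicate 2 the log2 fold change was -0.40 for Nr1d2 and -0.24 for Clock.

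Target genes of the factors were taken from textbook lists. Of 21 PU.1 targets, 0 passed with edgeR and 1, Fcgr1, passed with DESeq2 (adjusted p = 0.041), where 3.95% of all genes did. An unadjusted edgeR p below 0.05 was reached by 7, where 14.5% of all genes reached it: 6 of them were lower in NICcA and 1, Fcgr1, higher. The median log2 fold change was -0.16. Fcgr1, the high-affinity antibody receptor, was at 140 and 77.5 CPM in NICcA and at 63.6, 48.3 and 61.5 CPM in wild type (log2 fold change 0.92, SE 0.26, edgeR adjusted p = 0.29), and the log2 fold change was 0.42 without NICcA replicate 2. Cd68, a lysosomal membrane glycoprotein, was at 242 and 221.5 CPM in NICcA and at 280.2, 354 and 455.5 CPM in wild type (log2 fold change -0.65, SE 0.21, edgeR adjusted p = 0.32). In all, 8 targets had both NICcA libraries below wild type and 2 had both above, where 18.5% and 18.3% of all genes did.

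Of 13 tested C/EBP targets, 0 passed with edgeR and 3 with DESeq2, 1 higher and 2 lower (3.95% of all genes passed with DESeq2), and 3 had an unadjusted edgeR p below 0.05 (14.5% of all genes). The median log2 fold change was 0.75. The cytokine gene Il1b was at 501 and 76.4 CPM in NICcA and at 16.6, 14.3 and 14.8 CPM in wild type (log2 fold change 4.24, SE 0.72, edgeR adjusted p = 0.27), and its size rested on NICcA replicate 2. Without NICcA replicate 2 its log2 fold change was 2.32 (edgeR adjusted p = 0.068) and without NICcA replicate 3 it was 5.04 (edgeR adjusted p = 0.0056), in fits where the lone NICcA library is assumed to vary as wild type does. Ptgs2, Nos2, Il6, Lcn2, Saa3 and Marco were highest in NICcA replicate 2 and second highest in wild type replicate 2, so 1 library of each genotype carried this part of the list. These 6 were picked after their values were seen. Pparg, the lipid-sensing nuclear receptor, was at 23.1 and 24.4 CPM in NICcA and at 35.6, 44.8 and 38.4 CPM in wild type, without overlap (log2 fold change -0.73, SE 0.13, edgeR adjusted p = 0.27, 7.4e-04 with DESeq2).

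Of 11 tested MAF targets, 0 passed with edgeR or DESeq2 and 1 had an unadjusted edgeR p below 0.05 (14.5% of all genes), at a median log2 fold change of 0.01. Mrc1, the mannose receptor, was at 528.5 and 651 CPM in NICcA and at 936, 786 and 729 CPM in wild type (log2 fold change -0.47, SE 0.17, edgeR adjusted p = 0.33). C1qa, a chain of complement C1q, was at 259.9 and 260.3 CPM in NICcA and at 122, 122.5 and 240.0 CPM in wild type (log2 fold change 0.69, SE 0.31, edgeR adjusted p = 0.37; log2 fold change 1.09 without wild type replicate 3), while C1qb and C1qc, picked after their values were seen, overlapped between the groups.

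**Figure D5:**
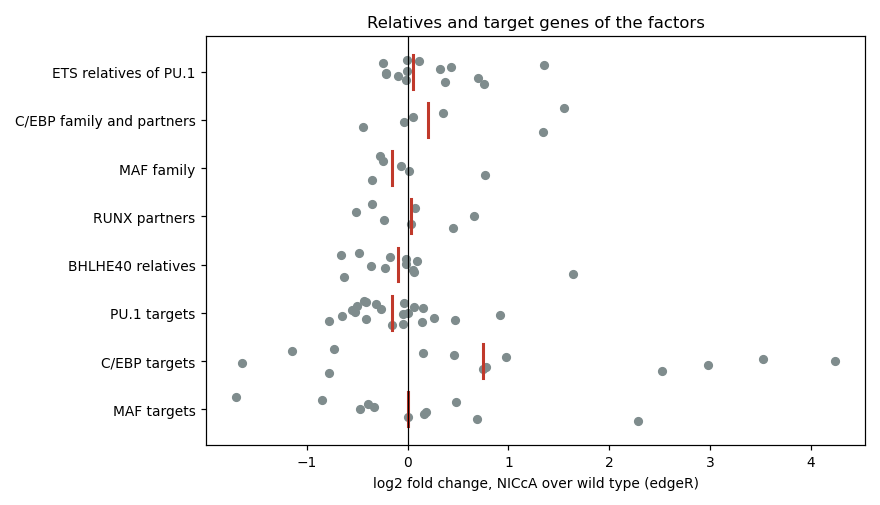
Log2 fold change, NICcA over wild type, from edgeR (x axis) for each tested gene (grey points) of the 8 lists of relatives and targets; vertical bars are list medians. Medians lie between -0.16 and 0.20 except for the C/EBP targets at 0.75, and 0 genes passed edgeR's adjustment.

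Markers of B cells were low in all libraries, and those of stroma were low outside wild type replicate 1. The 5 B cell markers summed to 0.568 and 0.665 CPM in NICcA and 0.416, 0.573 and 1.0 CPM in wild type. The 4 stromal markers summed to 0.329 and 0.291 CPM in NICcA and to 15.8, 0.0546 and 0.455 CPM in wild type, with the collagen gene Col3a1 at 7.27 CPM in wild type replicate 1. Dendritic cell markers, 7 genes, summed to 1010 and 662 CPM in NICcA and 723, 923 and 908 CPM in wild type, mostly from Itgax, which macrophages also express. Of the 7, 4 lay above all wild type libraries in NICcA (Flt3, Zbtb46, Xcr1 and Cd209a), where 18.3% of all genes did, and the list median log2 fold change was 1.05. Flt3 was at most at 0.762 CPM and Xcr1 at 0.598 CPM in any library. A negative log2 fold change stood in 2 of the 7, Clec9a (-1.14, SE 0.50) and Itgax (-0.187, SE 0.205). Clec9a, picked after its values were seen, was at 6.85 and 13.5 CPM in NICcA. In wild type it was at 10.8, 24.9 and 31.4 CPM, with overlap. Zbtb46, a factor of classical dendritic cells, was at 10.7 and 7.61 CPM in NICcA and at 5.33, 4.82 and 2.67 CPM in wild type (log2 fold change 1.10, SE 0.32, edgeR adjusted p = 0.29). The chemokine receptor gene Ccr7 was at 166 and 69.4 CPM in NICcA and at 33.5, 77.6 and 23.7 CPM in wild type, with overlap (log2 fold change 1.39, SE 0.57, edgeR adjusted p = 0.34), with a log2 fold change of 0.62 without NICcA replicate 2. The 8 macrophage markers summed to 11900 and 12400 CPM in NICcA and 13700, 16400 and 20200 CPM in wild type, and Lyz2 made up most of each sum. By gene, 4 of the 8 had a positive and 4 a negative log2 fold change, with a median of 0.00. No marker was at 0 in all 5 libraries, and with edgeR 0 markers passed, while 1 macrophage marker (Fcgr1) and 1 neutrophil marker (Ngp) passed with DESeq2.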

How the data were processed

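Messenger RNA of 2 NICcA and 3 wild type macrophage libraries was sequenced. Per the file headers, the authors deposited a table with the raw read count and the RPKM (reads per kilobase of transcript, scaled to depth) of 27457 RefSeq transcript rows, and a second table with RPKM alone. Bowtie 0.12.2 and build mm8 stand in the submitters' processing notes, and how reads were counted, with or without strand, is not given in the sources used here. Since isoform rows share reads, each gene is represented by the row with most counts on average. In 47 rows a date stood in place of the symbol.

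The count test was edgeR 4.0.16 under R 4.3.3 (TMM, filterByExpr, quasi-likelihood) with genotype as its single term, adjusted over all rows tested. SE is the absolute log2 fold change over the square root of F. Alternatives were RLE or no scaling, no low-count filter, DESeq2 1.42.0, limma 3.58.1 (voom, or log2 RPKM with a pseudocount of 1 or 0.1), the replicate number in the model, and fits lacking one library. The main edgeR fit, DESeq2 and limma-voom were tested on simulated data, and the other alternatives were not. Lengths of Runx1 stretches came from RPKM and counts, with the read total set on GENCODE M21 lengths of 9532 rows.

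Genes named by rule were the members, Csf1r, Lyz2, Hes1 and Notch1, up to 4 called genes of each of 15 lists (failing that, the 2 lowest p-values), and the 3 nearest genes to each of 2 members. Notch1 was at 84.2 and 87.6 CPM in NICcA and 78.5, 68.1 and 67.4 CPM in wild type. Members and lists were chosen with earlier results of these data known. One gene of the MAF family list is not reported here.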

Additional observations from a re-analysis of the deposited data

How the results depend on the processing

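No factor passed the adjusted threshold under any alternative that was run. The sign held for Sfpi1, Cebpa, Cebpd and Runx3 in all of them, with log2 fold changes of 0.64 to 1.85 for Runx3. The number of genes called, 4 with edgeR, was 527 with DESeq2, 2 with limma-voom and with limma on log2(RPKM + 1) or log2(RPKM + 0.1), 11 without a low-count filter, and 0 to 44 on leaving out each library (0 without NICcA replicate 2 or wild type replicate 2, 44 without NICcA replicate 3). DESeq2 called 1 PU.1 target, 3 C/EBP targets, 1 macrophage marker and 1 neutrophil marker, where edgeR called 0. Leaving out each library called 0 to 1 C/EBP targets. The log2 ratio of Runx3 to Runx1, 1.50 in the difference between groups, was 0.51 with 1 added to each RPKM and 0.82 to 1.88 on leaving out each library.

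Maf turned positive with log2(RPKM + 0.1) (0.147), with log2(RPKM + 1) with or without a filter and in the RPKM-only table (0.080 in each), with voom (0.071) and with no scaling factor (0.042). With voom, Bhlhe40 was at -0.005 and Dcn, a stromal marker, at 0.404. The distal-start rows of Runx1 gave -0.045 and -0.051. On leaving out each library, Maf ranged from -0.369 to 0.251, Cebpb from -0.176 to 0.320, Runx1 from -0.061 to 0.122, Bhlhe40 from -0.190 to 0.168, and the B cell markers Cd79b from -0.632 to 0.010 and Cd79a from -0.160 to 0.461. The cause of these reversals was not tested. With no scaling factor the median log2 fold change of all genes shifted by 0.106.

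The groups share only replicate numbers 2 and 3. The log2 CPM difference between replicates 2 and 3 correlated at 0.209 between the genotypes, over all rows tested. Nothing says that a number marks a shared source. The replicate block was fitted on the libraries numbered 2 and 3 only, so wild type replicate 1 was left out. With the block, 0 genes were called. The log2 fold change was 0.156 for Maf, -0.150 for Cebpb, -0.017 for Bhlhe40 and -0.146 for Cd79a. The same libraries without a block gave -0.001 for Maf, -0.176 for Cebpb and -0.010 for Bhlhe40.

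The median SE of the log2 fold change over all genes was 0.17. It was 0.52 for Runx3, which had 57 to 434 counts a library, and 0.19 without wild type replicate 3.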
